A study of Mus musculus with 4 samples.

Results

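The NOTCH receptors, ligands and HEY/HES targets expressed by mesenchymal stem cells (MSCs) were followed through DNMT1 depletion and early osteoblast (OB) differentiation. The set was the 10 genes Notch1, Notch2, Notch3, Jag1, Jag2, Dll1, Hey1, Heyl, Hes1 and Nrarp, chosen by gene symbol from the 54532 genes of the deposited count table. The cells were C3H10T1/2, an established mouse mesenchymal line derived from C3H embryos, which stands here for MSCs as a single line and not for bone tissue. All cells were transfected for 48 h, with a control siRNA (control, OB) or with siRNA against DNMT1, the maintenance DNA methyltransferase (siDNMT1, siDNMT1_OB). The OB and siDNMT1_OB cells were then kept for 3 days in complete medium with L-ascorbic acid at 50 µM, β-glycerophosphate at 10 mM, dexamethasone and penicillin-streptomycin, while the other two groups were left uninduced. Each of the 4 groups held 1 library, so every ratio below compares libraries, has no replicate check and has an interval for counting error only. An additive fit over all 4 libraries, given after the ratios, is the exception. Which of the siRNAs against DNMT1 went into these libraries was not given in the sources used here.

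NOTCH signalling passes between neighbouring cells. A ligand of the Jagged or Delta-like family on a cell binds a NOTCH receptor on the next, the receptor is cut by an ADAM protease and then by γ-secretase, and its freed intracellular domain joins the DNA-binding protein RBPJ and Mastermind co-activators in the nucleus to switch on genes of the HES and HEY repressor families. In skeletal progenitors the pathway is known for holding back differentiation, and in mural cells of vessels for its NOTCH3 and JAG1 arm.

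The total counts lay between 22296046 in OB and 27367792 in control, and 13233 genes reached a mean CPM (counts scaled to library size) of 1 across the libraries and were compared. The level of Dnmt1 itself was 265 CPM for control, 132 for siDNMT1, 85.4 for OB and 93.1 for siDNMT1_OB. With DNMT1 siRNA it was thus lower only without induction. The library labelled siDNMT1_OB had no less Dnmt1 than OB (log2 ratio 0.13, 95% counting interval 0.04 to 0.21), which applies to every value below drawn from that library. All 10 mesenchymal markers were past the filter, and of 5 haematopoietic and 5 epithelial markers, 4 and 3 or more in each library were at or under 3 counts. Of the 7 osteoblast markers, 4 had few counts in every library, the OB-labelled ones included: Alpl, which encodes tissue alkaline phosphatase, 0 to 2, Bglap (osteocalcin) 1 to 3, Sp7 1 to 8 and Ibsp 1 to 17. The other three were well detected. Runx2 had 2049, 2459, 1644 and 2327 counts in control, siDNMT1, OB and siDNMT1_OB. Spp1 (osteopontin) had 14862, 5270, 4226 and 7261, and was highest in control. Phex had 256, 116, 687 and 168, and was highest in OB. In bulk RNA, fewer cells expressing a gene and less RNA of it per cell cannot be told apart.

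The promoters of Notch3, Notch1 and Jag1 are shown first, as those of the receptors past the fold in OB against control and of the most abundant ligand, because the substrate of DNMT1, the CG dinucleotide, can be read from them. Promoter sequences (250 bases before to 50 after the RefSeq start, build GRCm38.p6) matched 7 of the 10 members. Those without an entry were Hey1, Heyl and Hes1. The sequences below run 5′ to 3′ on the minus strand, at chr17:32166841-32167140 for Notch3, chr2:26503773-26504072 for Notch1 and chr2:137116471-137116770 for Jag1, and capitals mark each CG.
Notch3: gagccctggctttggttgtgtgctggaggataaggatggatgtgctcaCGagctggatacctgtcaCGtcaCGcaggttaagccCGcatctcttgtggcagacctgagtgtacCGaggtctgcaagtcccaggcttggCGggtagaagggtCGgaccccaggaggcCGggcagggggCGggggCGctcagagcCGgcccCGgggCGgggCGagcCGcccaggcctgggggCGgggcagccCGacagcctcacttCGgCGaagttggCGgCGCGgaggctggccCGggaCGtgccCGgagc
Notch1: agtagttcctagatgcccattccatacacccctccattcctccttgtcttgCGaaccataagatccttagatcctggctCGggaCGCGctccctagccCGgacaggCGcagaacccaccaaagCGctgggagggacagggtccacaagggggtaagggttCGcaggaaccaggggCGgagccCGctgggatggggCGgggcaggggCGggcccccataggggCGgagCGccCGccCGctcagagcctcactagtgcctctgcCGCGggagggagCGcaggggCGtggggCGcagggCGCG
Jag1: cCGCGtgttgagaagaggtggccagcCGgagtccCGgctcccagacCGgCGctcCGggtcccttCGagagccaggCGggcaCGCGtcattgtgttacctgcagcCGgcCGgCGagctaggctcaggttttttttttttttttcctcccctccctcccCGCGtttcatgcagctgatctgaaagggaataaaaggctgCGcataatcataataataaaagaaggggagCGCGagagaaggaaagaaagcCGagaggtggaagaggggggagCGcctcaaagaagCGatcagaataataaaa

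These windows held 25 CG in Notch3, 23 in Notch1 and 22 in Jag1, against a median of 7 over the 32851 promoters of the table. Of all these promoters, 81.6%, 78.5% and 76.9% held fewer CG than the Notch3, Notch1 and Jag1 windows. The member promoters had a median of 23.5 CG over 8 windows, since Dll1 has 2 starts, and ranged from 15 in a Dll1 window to 63 in Jag2. The core of the RBPJ site (TGGGAA, either strand) was found in 0 of the 8 windows and in 25.6% of all promoters. The N-box bound by HES proteins (CACNAG, either strand) was found in 5 of 8, in Notch1, Notch2, Notch3, Nrarp and a Dll1 window, against 42.5% of all promoters. The palindromic E-box CACGTG was found in the Nrarp window alone, against 7.15% of all. A match to such short letters is a description of the sequence and not a site, and no match says only that the letters are not in this window. Methylation of these promoters was not analysed here.

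Of the 10 members, 7 passed the expression filter and 3 did not. Heyl, a HEY family repressor, had 0, 0, 1 and 0 counts in control, siDNMT1, OB and siDNMT1_OB, and Nrarp, which encodes a feedback inhibitor of the NOTCH complex, had 1, 1, 0 and 1. A count of 3 corresponded to between 0.111 and 0.133 CPM, so both genes were at or under this floor in every library, and no ratio is given for them. Of the 2582 exonic bases of Nrarp, 2051 are shared with Gm38287, which had 0 counts. Whether reads over these bases were left uncounted was not tested. Dll1, a Delta-like ligand, had 23, 24, 24 and 28 counts, or 0.848, 0.937, 1.06 and 1.05 CPM, and its log2 ratios in the 4 comparisons lay between −0.02 and 0.30 with counting intervals that all included 0. The filter on low values leaves out a gene by its mean over all 4 libraries, so the 7 members compared below are not all members.

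Notch1 (ENSMUSG00000026923), Notch2 (ENSMUSG00000027878) and Notch3 (ENSMUSG00000038146) encode the receptors. Notch3 lies on the minus strand of chromosome 17, 32120820 to 32166880 (GRCm38), Notch1 on the minus strand of chromosome 2, 26457903 to 26516663, and Notch2 on the plus strand of chromosome 3, 98013527 to 98150361. The RefSeq start of the Notch1 window above lies inside that span. Whether strand was used in counting was not stated. The antisense gene Gm17276 shares 488 exonic bases with Notch3, and 0610009E02Rik and Gm13568 on the opposite strand share 1482 with Notch1. Gm42820 on the same strand shares 541 with Notch2, and A930024N18Rik shares 867 with the ligand gene Dll1. These neighbours had few counts themselves, 0 to 12 for Gm17276, 19 to 30 for 0610009E02Rik, 0 for Gm13568, 5 to 19 for Gm42820 and 0 to 8 for A930024N18Rik. How reads in shared bases were counted was not tested.

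Notch3 had 1566, 992, 4561 and 3224 counts in the order control, siDNMT1, OB, siDNMT1_OB. Scaled, these were 57.7 CPM (95% interval 54.9 to 60.7), 38.7 (36.3 to 41.2), 201.7 (195.9 to 207.6) and 120.5 (116.4 to 124.7). Both induced libraries stood above both uninduced ones, and within each state the DNMT1 siRNA library stood below its control. Notch1 had 1053, 1500, 2444 and 2315 counts in the same order, or 38.8 CPM (36.5 to 41.2), 58.5 (55.6 to 61.6), 108.1 (103.8 to 112.4) and 86.5 (83.0 to 90.1). Notch1 was likewise highest in OB, but uninduced cells with DNMT1 siRNA were above control. Notch2 had 2427, 2815, 2679 and 3039 counts, or 89.5 CPM (86.0 to 93.1), 109.9 (105.9 to 114.0), 118.5 (114.0 to 123.0) and 113.6 (109.6 to 117.7). Its control library was the low one, and the intervals of siDNMT1_OB overlapped those of the other two libraries.

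**Figure D1:**
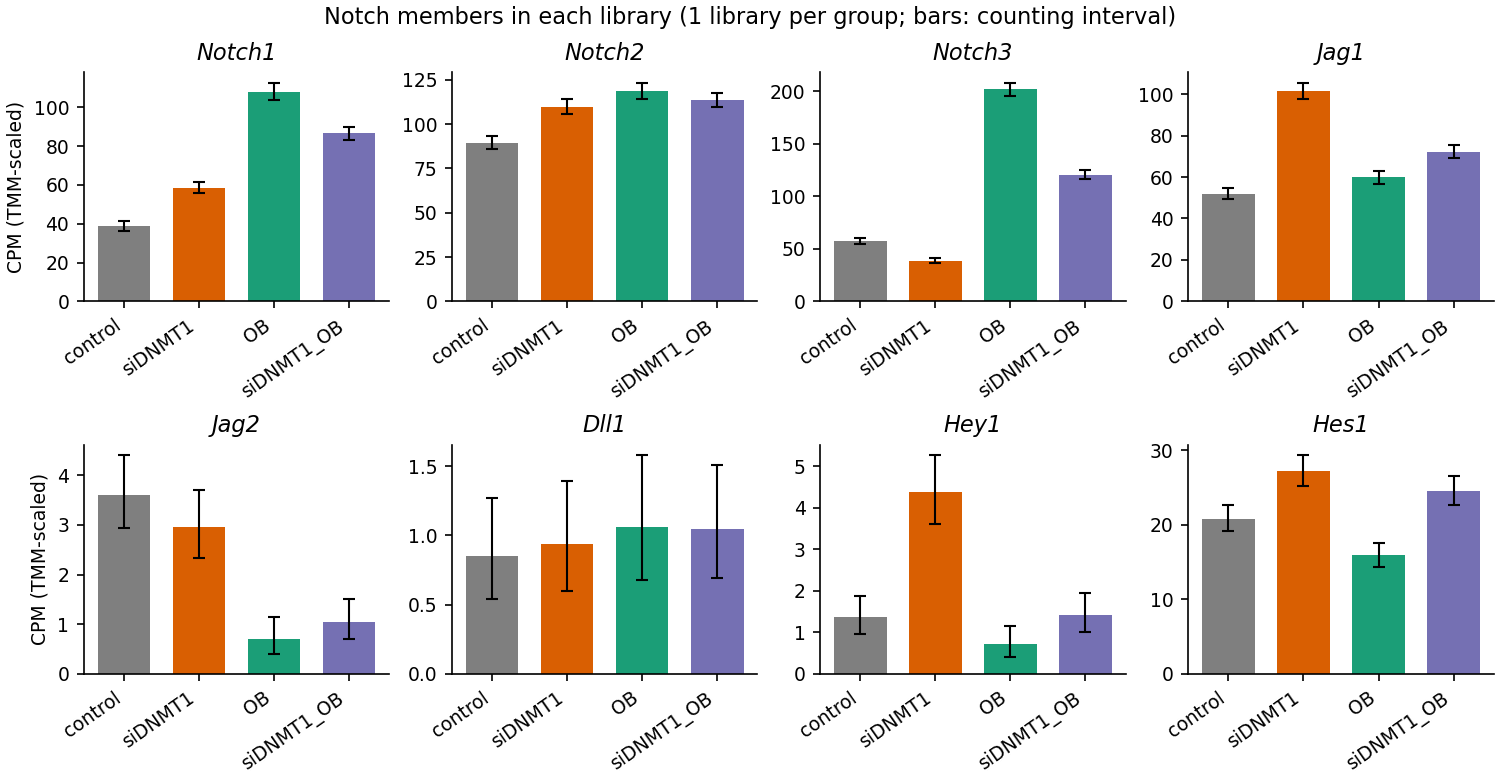
TMM-scaled CPM (vertical axis, linear from 0, its range set per gene) of the 8 members with more than 3 counts in every library, in control, siDNMT1, OB and siDNMT1_OB. Bars are single libraries and whiskers are 95% counting intervals. Notch3 stood at 201.7 CPM in OB against 57.7 in control, Jag1 and Hey1 were highest in siDNMT1 at 101.3 and 4.37 CPM, and the Dll1 intervals overlapped in all libraries.

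Levels of different genes were compared per exon length, as CPM per kb. In control the order of the receptors was Notch2 at 8.30 CPM per kb (7.97 to 8.64), Notch3 at 7.18 (6.83 to 7.54) and Notch1 at 2.73 (2.57 to 2.90), with no overlap of neighbours. In siDNMT1 the order was the same, at 10.2, 4.81 and 4.11. In OB Notch3 led with 25.1 (24.3 to 25.8), ahead of Notch2 with 10.99 (10.6 to 11.4) and Notch1 with 7.59 (7.30 to 7.90), and in siDNMT1_OB the order was Notch3 with 14.98, Notch2 with 10.5 and Notch1 with 6.08. Of the summed receptor level per length, Notch3 thus made up 39.4% for control, 25.2% for siDNMT1, 57.4% for OB and 47.4% for siDNMT1_OB. The share of Notch2 was 45.6%, 53.3%, 25.2% and 33.3%, and that of Notch1 stayed between 14.98% and 21.5%. The receptors summed to 18.2, 19.1, 43.7 and 31.6 CPM per kb in the same order. Among the 13233 genes compared, Notch3 stood at the 52.7th percentile of level per length in control and at the 84.7th in OB.

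**Figure D2:**
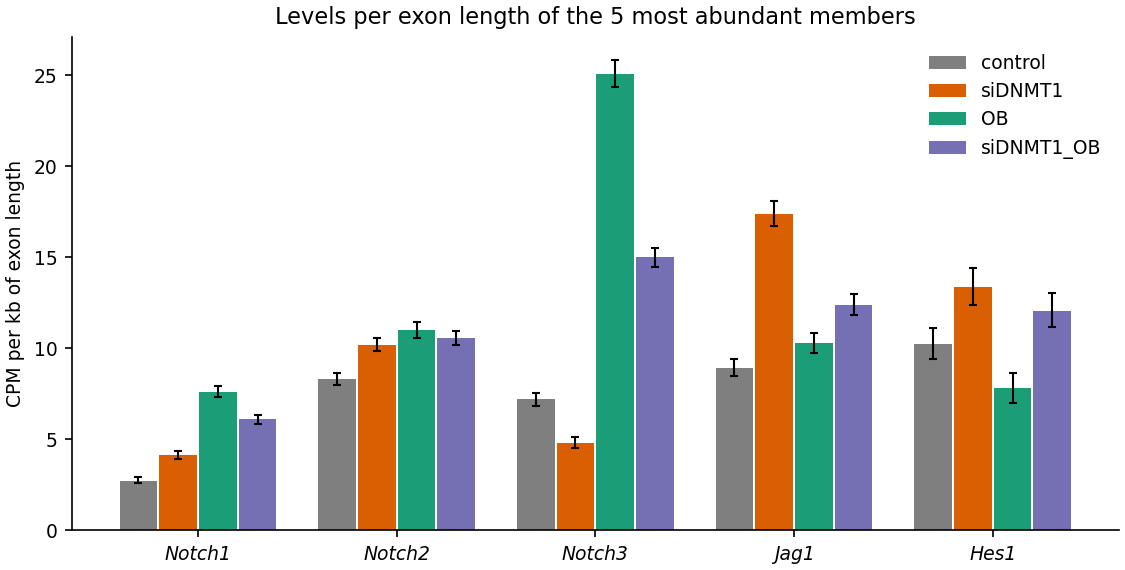
CPM per kb of exon length (vertical axis, linear from 0) of the 5 most abundant members in the 4 libraries, coloured by library, with 95% counting intervals as whiskers. Notch3 moved from 7.18 in control to 25.1 in OB and led the receptors in both induced libraries, and Jag1 was highest in siDNMT1 at 17.4.

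The ligands were Jag1 (ENSMUSG00000027276; chromosome 2, 137081456 to 137116644, minus strand) and Jag2 (ENSMUSG00000002799; chromosome 12, 112907819 to 112929776, minus strand), the Jagged ligands, with Dll1 near the filter as above. Jag1 had 1407, 2595, 1352 and 1931 counts in that order of libraries, or 51.9 CPM (49.2 to 54.7), 101.3 (97.4 to 105.3), 59.8 (56.6 to 63.1) and 72.2 (69.0 to 75.5). The siDNMT1 library was high and the control library low, and no interval of Jag1 overlapped another. Jag2 had 98, 76, 16 and 28 counts, or 3.61, 2.97, 0.707 and 1.05 CPM. Its uninduced libraries were the high ones, and within each state the intervals overlapped. Per exon length Jag1 held between 92.5% and 96.9% of the summed ligand level in every library, at 8.90, 17.4, 10.3 and 12.4 CPM per kb.

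Of the targets, Hes1 (ENSMUSG00000022528; chromosome 16, 30064384 to 30067796, plus strand), the HES repressor that answers NOTCH in many cell types, had 565, 697, 359 and 657 counts in control, siDNMT1, OB and siDNMT1_OB. Scaled, these were 20.8 CPM (19.1 to 22.6), 27.2 (25.2 to 29.3), 15.9 (14.3 to 17.6) and 24.6 (22.7 to 26.5). The DNMT1 siRNA libraries were the higher of each pair and OB was the lowest of all. Hey1 (ENSMUSG00000040289; chromosome 3, 8663359 to 8667256, minus strand), a HEY repressor, had 37, 112, 16 and 38 counts, or 1.36 CPM (0.960 to 1.88), 4.37 (3.5996 to 5.26), 0.707 (0.404 to 1.15) and 1.42 (1.00 to 1.95). Its siDNMT1 library stood apart above the other three, and its levels in control and siDNMT1_OB were nearly equal. Per exon length Hes1 was the most abundant member in control (10.2 CPM per kb), while Hey1 lay between 0.217 and 1.34 in the 4 libraries. The targets summed to 10.7, 14.7, 8.02 and 12.5 CPM per kb in the same order.

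DNMT1 depletion in uninduced cells was compared first, as the log2 ratio of siDNMT1 to control. Hey1 was the member with the largest ratio, 1.63 (1.13 to 2.26), and the only member whose log2 ratio reached 1 in size, called past the fold here. Thus 1 of 7 members was past the fold on the higher side, where 2% of all genes compared were, and 0 on the lower side, where 1.37% were. Jag1 lay just short of the fold at 0.96 (0.87 to 1.06). Notch1 had 0.59 (0.48 to 0.71), Hes1 0.38 (0.22 to 0.55) and Notch2 0.30 (0.22 to 0.38). Notch3 was lower, at −0.58 (−0.69 to −0.46), and Jag2, at −0.28 (−0.74 to 0.16), had an interval that included 0. The median of the 7 members was 0.38, beside −0.0014 over all genes compared. It was 0.21 over the 10 members without a filter. Here and below, medians without a filter include Heyl and Nrarp, whose ratios at the floor are set mainly by the prior count. With a minimum mean CPM of 5, which drops Hey1 and Jag2, 0 of 5 members were past the fold, where 1.02% of all genes were higher and 0.84% lower.

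After OB induction, siDNMT1_OB was compared with OB. None of the 7 members was past the fold, where 2.36% of all genes compared were higher and 1.37% lower, and no p-value enters this count. Hey1 had 0.93 (0.13 to 1.95), Hes1 0.63 (0.44 to 0.82) and Jag1 0.27 (0.17 to 0.37). The ratio of Hey1 lay close to the fold and depended on the prior count, at 0.98 with a prior count of 0.5. On the lower side were Notch3 at −0.74 (−0.81 to −0.68) and Notch1 at −0.32 (−0.40 to −0.24). Notch2 at −0.061 (−0.136 to 0.015) and Jag2 at 0.52 (−0.37 to 1.55) had intervals that included 0. The member median was 0.27, beside 0.013 over all genes, but it was 0.13 without a filter and turned to −0.061 with the minimum of 5. Hey1, Hes1 and Jag1 thus had positive ratios and Notch3 a negative ratio in the comparisons without and with induction. The other members compared had opposite signs, Notch1 with 0.59 and −0.32, Notch2 with 0.30 and −0.061 and Jag2 with −0.28 and 0.52. The comparisons share no library, but in the induced pair Dnmt1 was not lower with DNMT1 siRNA (log2 ratio 0.13).

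Markers of mural and smooth muscle cells, in which NOTCH3 and JAG1 are known to act, were also read. The 6 markers summed to 1304.5, 3703, 1360.0 and 3948 CPM in control, siDNMT1, OB and siDNMT1_OB, and most of this was Acta2, smooth muscle actin. Acta2 had log2 ratios of 1.79 uninduced and 1.71 induced. Among the others, Cnn1 (calponin) had 2, 9, 11 and 177 counts and stood out in siDNMT1_OB, with a log2 ratio of 3.56 (2.89 to 4.79) against OB. Rgs5, a pericyte marker, had 60, 35, 6 and 56 counts and was lowest in OB, with ratios of −0.67 uninduced and 2.65 induced. Tagln had 25, 40, 22 and 77 counts and Myh11, a marker of mature smooth muscle, 6, 8, 32 and 30. Cspg4, abundant in all libraries, had −0.13 and 0.18. Of 6 endothelial markers, between 3 and 5 were at or under 3 counts in each library, and Tek, at 51, 152, 63 and 203 counts, held most of the rest. The part of these genes in the values of Notch3, Jag1 and Hey1 was not tested.

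**Figure D3:**
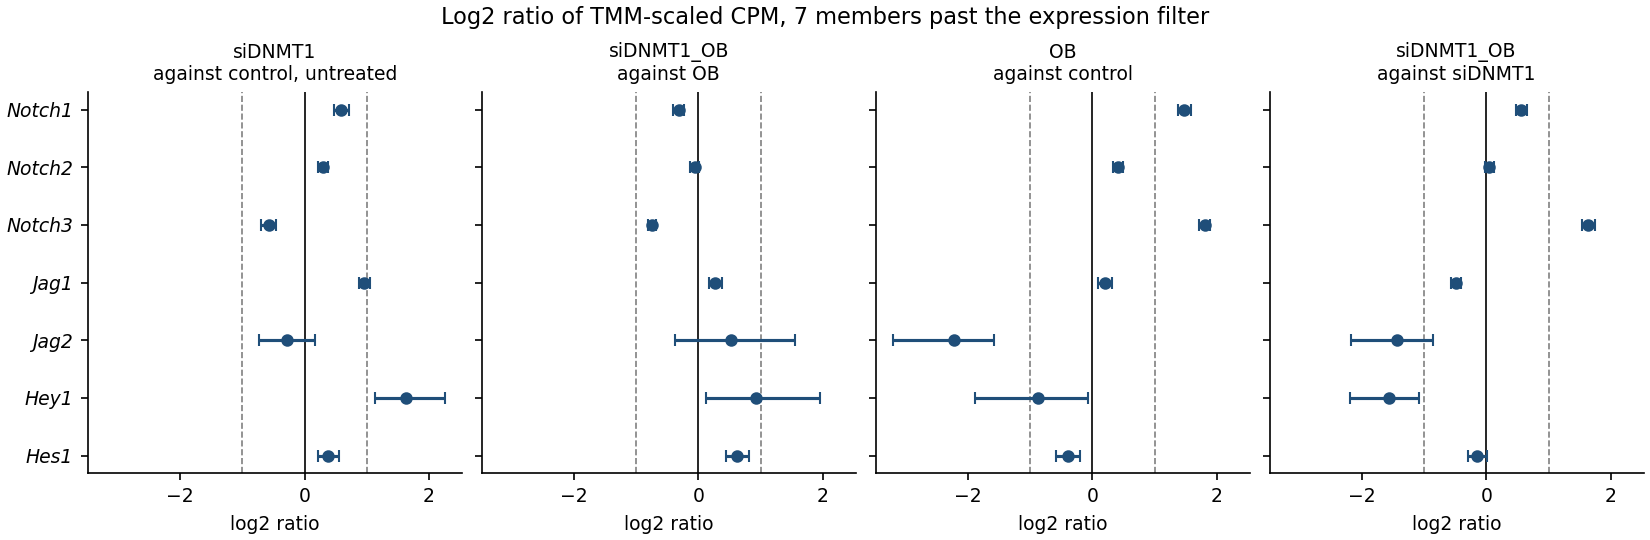
Log2 ratio of TMM-scaled CPM (horizontal axis) of the 7 members past the filter in the 4 comparisons, with 95% counting intervals as whiskers. The solid line marks no difference and dashed lines a log2 ratio of 1 in size. Hey1 lay at 1.63 in siDNMT1 against control, Notch3 at 1.80 and 1.64 in the OB comparisons, and Jag2 at −2.23 and −1.44.

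OB induction was then examined with each siRNA. With control siRNA, 2 of 7 members were past the fold on the higher side, where 10.6% of all genes compared were, and 1 on the lower side, where 7.1% were. Notch3 had a log2 ratio of 1.80 (1.72 to 1.89) and Notch1 1.48 (1.37 to 1.58). Jag2 had −2.23 (−3.21 to −1.58), from 16 counts against 98. It reached the filter through its uninduced libraries (control 3.61 and siDNMT1 2.97 CPM, OB 0.707). The filter thus favoured a lower ratio for Jag2, on which the lower count rests. Hey1 had −0.87 (−1.89 to −0.07) and Hes1 −0.39 (−0.59 to −0.20), while Notch2 had 0.40 (0.33 to 0.48) and Jag1 0.20 (0.10 to 0.31). The receptors thus all had positive ratios, those of Notch3 and Notch1 past the fold and that of Notch2 short of it. Hes1 and Hey1 both had negative ratios short of the fold. Of all genes compared, 50.7% had a positive ratio. The other HES and HEY genes past the filter had positive ratios, Hes6 short of the fold (958 counts against 703, 0.71) and Hey2 past it (47 against 16, 1.69). Hey2 reached the filter through its induced libraries (OB 2.08 and siDNMT1_OB 1.61 CPM, control 0.590 and siDNMT1 1.29). The filter thus favoured a higher ratio for Hey2. The members had a median of 0.20 beside 0.0083 over all genes. With the minimum mean CPM of 5 it was 0.40, and 0 members were lower past the fold, where 6.73% of all genes were.

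With DNMT1 siRNA, 1 of 7 members was past the fold on the higher side (6.83% of all genes) and 2 on the lower side (2.71% of all genes). Notch3 again had the highest ratio, 1.64 (1.53 to 1.74). Hey1 had −1.57 (−2.19 to −1.08) and Jag2 −1.44 (−2.18 to −0.86). For Jag2 the filter favoured a lower ratio here too, as above. Notch1 had 0.56 (0.47 to 0.66), Jag1 −0.49 (−0.57 to −0.40), Hes1 −0.15 (−0.30 to 0.01) and Notch2 0.048 (−0.027 to 0.12). The intervals of Hes1 and Notch2 included 0, and the member median was −0.15 beside 0.0010 over all genes. It moved to −0.010 without a filter and to 0.048 with the minimum of 5. At that minimum 0 members were lower past the fold, where 2.12% of all genes were.

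How far the siDNMT1 ratio differed between the states was computed for each member as the ratio in OB cells minus that in uninduced cells. With 1 library per group this difference was not tested, and its interval covers counting error only. Notch1 had −0.91 (−1.06 to −0.77), from 0.59 uninduced to −0.32 induced. Jag1 had −0.69 (−0.83 to −0.56) and Notch2 −0.36 (−0.47 to −0.25). Notch3, which was lower with DNMT1 siRNA in each state, had a smaller difference of −0.17 (−0.30 to −0.03). For Hes1 (0.24; −0.005 to 0.49), Hey1 (−0.70; −1.72 to 0.43) and Jag2 (0.79; −0.20 to 1.92) the intervals included 0, so no difference was detectable at this depth. Over all genes compared the median difference was 0.0045.

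A fit that takes the siRNA and OB effects as additive leaves 1 residual degree of freedom and gives a test across libraries, in which any difference between the states counts as noise. In this edgeR quasi-likelihood fit the OB effect over both siRNAs was called for 4 of 7 members at an adjusted p under 0.05, where 21.1% of all genes compared were called. These were Notch3 (log2 1.72, adjusted p = 0.00467), Jag2 (−1.89, adjusted p = 0.0238), Notch1 (1.02, adjusted p = 0.0384) and Hey1 (−1.35, adjusted p = 0.0462) by edgeR. Jag2 reached the filter through its uninduced libraries (control 3.61 and siDNMT1 2.97 CPM, OB 0.707 and siDNMT1_OB 1.05). The filter thus favoured a lower ratio for Jag2, and no conclusion is drawn from its call. The siDNMT1 effect over both states was called by edgeR for 0 of 7 members and 0% of all genes. Without adjustment, 1148 of the 13233 genes and 4 of the 7 members had an edgeR p under 0.05. These members were Notch3 (−0.66, adjusted p = 0.247), Hey1 (1.40, adjusted p = 0.333), Hes1 (0.51, adjusted p = 0.446) and Jag1 (0.62, adjusted p = 0.463) by edgeR.

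The rest of the pathway was read from 6 lists with 61 genes, of which 51 passed the filter. In siDNMT1 against control 1 of the 51 was higher and 0 lower past the fold, and in siDNMT1_OB against OB again 1 higher and 0 lower. Each is 1.96% of the list, beside 2% and 2.36% of all genes compared. The first was Hey2, another HEY repressor, with 33 counts against 16 and a log2 ratio of 1.03 (0.22 to 2.09). The second was Dlk1, a non-canonical ligand of the Delta-like family, with 50 counts against 9 and 2.03 (1.19 to 3.44). The 51 genes had medians of 0.094 and 0.019 in these comparisons. The 21 genes of the RBPJ complex and its co-repressors ranged from −0.21 to 0.89 and from −0.42 to 0.33.

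In the OB comparisons 5 genes were higher and 4 lower past the fold with control siRNA, of 51, and 2 higher and 3 lower with DNMT1 siRNA. These are 9.80% and 7.84% of the list, beside 10.6% and 7.1% of all genes, and 3.92% and 5.88%, beside 6.83% and 2.71%, so the counts with control siRNA were near the background. Rbpj, the DNA-binding partner of every NOTCH receptor, had 4021, 3558, 1465 and 1795 counts in control, siDNMT1, OB and siDNMT1_OB. Both induced libraries were low, with log2 ratios of −1.19 (−1.28 to −1.11) with control siRNA and −1.05 (−1.13 to −0.97) with DNMT1 siRNA. Maml3, a Mastermind co-activator, had 168, 295, 322 and 446 counts and a ratio of 1.19 (0.93 to 1.48) with control siRNA. Aph1b, a γ-secretase subunit, had 467, 552, 935 and 1431 counts and ratios of 1.26 (1.10 to 1.43) and 1.31 (1.17 to 1.46). Its paralog Aph1c was past the fold with DNMT1 siRNA, at 98 counts against 32 and 1.496 (0.96 to 2.18). Whether counting split reads between these paralogs was not tested. All 10 genes of receptor cleavage had a positive ratio in OB against control, with a median of 0.23, and 9 of 10 in siDNMT1_OB against siDNMT1, with a median of 0.19, where 50.7% and 50.1% of all genes had a positive ratio. With DNMT1 siRNA 8 of these 10 had a negative ratio in each state, with medians of −0.15 uninduced and −0.18 induced, where 49.7% and 52.2% of all genes had a positive one.

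Dlk1 had 116, 131, 9 and 50 counts, and its OB ratios were −3.19 (−4.59 to −2.45) and −1.42 (−1.95 to −0.97). Neurl1a, a ligase that acts on NOTCH ligands, had 144, 130, 41 and 58 counts and ratios of −1.51 (−2.09 to −1.04) and −1.20 (−1.70 to −0.77). Hey2 had 16, 33, 47 and 43 counts, so that control was the low library, with 1.69 (0.97 to 2.73) in OB against control. Hey2 was thus on the opposite side from Hey1 during induction with control siRNA. The filter favoured a higher ratio for Hey2 there, as above, and Hey2 is among the genes counted as higher past the fold. The receptor Notch4 had 16 to 38 counts, Dll4 1 to 3, and Hes5 was at 3 counts in control and 0 in the other libraries. The genes that add sugars to the receptors (4 of 5 past the filter) lay between −0.48 and 0.40 in all comparisons, and Mfng had 0 counts throughout.

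**Figure D4:**
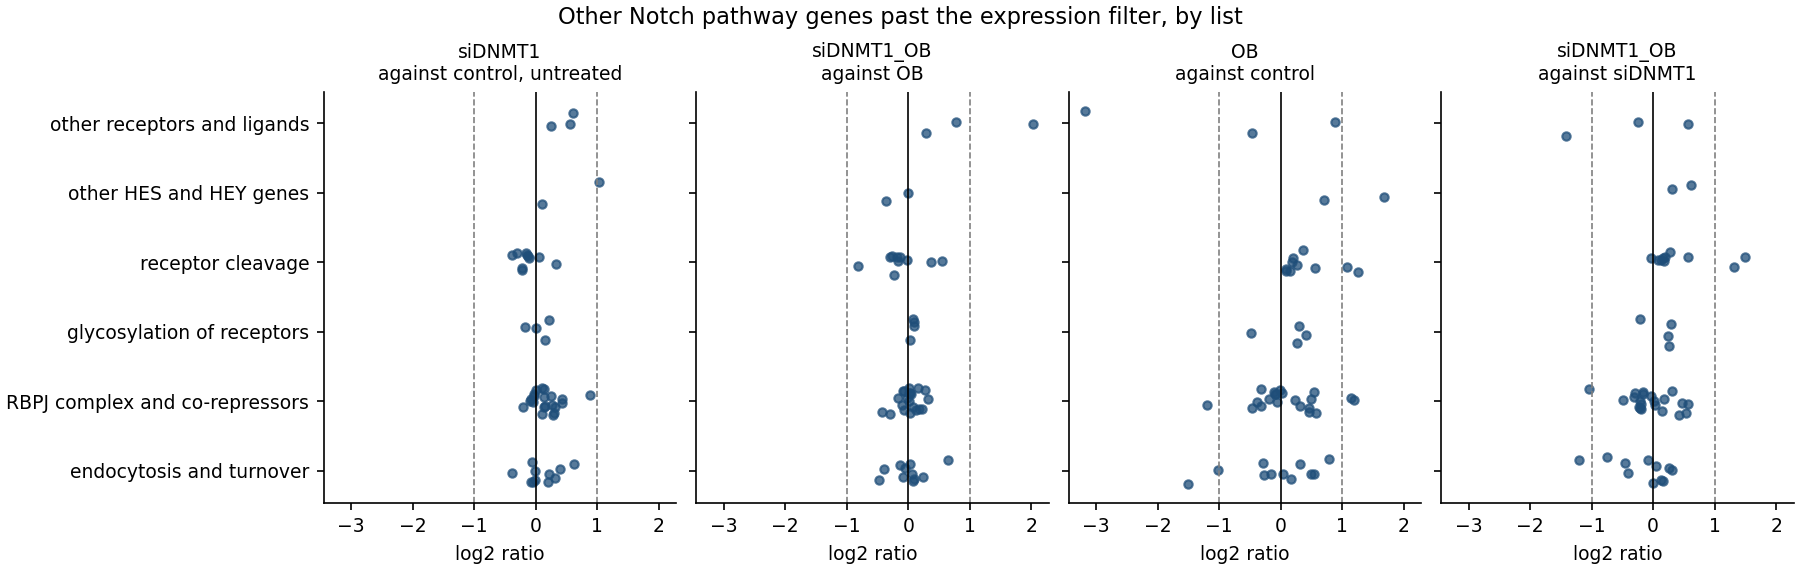
Log2 ratio (horizontal axis) of the 51 other NOTCH pathway genes past the filter in the 4 comparisons, 1 point per gene, by list (the vertical scatter within a list carries no value). Dashed lines mark a log2 ratio of 1 in size. The largest values were those of Dlk1, at −3.19 in OB against control and 2.03 in siDNMT1_OB against OB.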

How the data were processed

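Poly(A) RNA of 4 C3H10T1/2 libraries was sequenced. Per the study's methods, TruSeq libraries were sequenced as paired ends on an Illumina instrument, and per the submitters' processing notes Trimmomatic, HISAT2, featureCounts and build mm10 were used. For the RNA reads, tool versions and the use of strand are not given in the sources used here. The authors deposited raw counts per gene with an exon length column. Every row had a gene name.

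Genes under a mean CPM of 1 were left out, and edgeR 4.0.16 (R 4.3.3) gave TMM factors over the 13233 that remained. The log2 ratio was taken from CPM with a prior count of 2. Intervals are exact (Clopper-Pearson) at 95% and were combined for differences of ratios by the MOVER method. They cover counting error only, because each group held 1 library. Reads carried no molecular identifiers, so the counts are of reads and not of molecules. A ratio of at least 1 in size was past the fold, and 3 counts served as the floor. With 1 library per group the study's edgeR test was not repeated, and an additive edgeR fit across all genes was an alternative, with Benjamini-Hochberg adjustment. Calculations were tested on a simulated pair of libraries that differed only by counting error and known folds, so spread between libraries was not covered. Promoters were taken from RefSeq.

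Every member and Dnmt1 were named, and of other pathway genes those past the fold with at least 20 counts, up to 3 per direction. Hes6, Notch4, Dll4, Hes5, Mfng and the genes of the closing observations were named outside this rule, after their values were seen. Members and lists were chosen with earlier results of these data known. Gene positions are those of the table.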

Additional observations from a re-analysis of the deposited data

Results flagged for a closer look

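For Notch1, the siDNMT1 ratio had opposite signs in the 2 states, 0.59 in uninduced cells and −0.32 in OB cells, a difference of −0.91 on the log2 scale. Each counting interval excluded 0. For Jag1, the OB ratio had opposite signs with the 2 siRNAs, 0.20 with the control and −0.49 with DNMT1 siRNA, a difference of −0.69. Each state and siRNA is 1 library, so neither difference was tested across libraries, and both rest on the library labelled siDNMT1_OB, in which Dnmt1 was not lower than in OB.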

How the results depend on the processing

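With 1 library per group no library could be left out, and no value of a comparison can be had without the library labelled siDNMT1_OB except siDNMT1 against control and OB against control. No paired analysis was possible because each group holds 1 library and so has no replicate numbers to block on; the additive edgeR fit, which takes each effect over both levels of the other factor, is given with the results. Member ratios were recomputed under total count, DESeq2 and upper quartile scaling, with a prior count of 0.5 and with TMM factors from all genes. The last of these was chosen after seeing the data. Together with the values under the other filters, all 188 member ratios that could be computed kept their sign and stayed inside the counting interval. The largest shift was 0.091. A filter does not enter the ratio of a gene, so the values under the other filters could not differ and are no check. With a read test added to the size rule, no count of members or pathway genes past the fold changed by more than 1.5 times. Without a filter (the 27380 genes with any count, 59 of them pathway genes), member medians were 0.21 (siDNMT1 against control), 0.13 (siDNMT1_OB against OB) and −0.010 (siDNMT1_OB against siDNMT1), and the pathway counts were 2 lower in siDNMT1 against control (4.46% of all genes) and 2 higher and 1 lower in siDNMT1_OB against OB (5.01% and 6.89%). With a minimum mean CPM of 5 (10827 genes, 5 members and 46 pathway genes), 0 members were higher in siDNMT1 against control and 0 lower in either OB comparison. Member medians were then −0.061 in siDNMT1_OB against OB, 0.40 in OB against control and 0.048 in siDNMT1_OB against siDNMT1. Of pathway genes, 0 were higher in siDNMT1 against control (1.02% of all genes) and in siDNMT1_OB against OB (1.71%), 2 lower in OB against control (6.73%), and 1 higher and 1 lower in siDNMT1_OB against siDNMT1 (4.7% and 2.12%). With a 1.5-fold size rule, 3 members were higher in siDNMT1 against control, 2 higher and 1 lower in siDNMT1_OB against OB, and 2 lower in OB against control, where 6.39%, 6.72%, 4.8% and 15.2% of all genes were. Pathway genes were then 4 higher in siDNMT1 against control, 3 higher and 1 lower in siDNMT1_OB against OB, and 8 higher in OB against control (19.1% of all genes). Of the members given a ratio, those with under 120 counts in a library (Hey1, Jag2, Dll1) have wide intervals at this depth.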

Other observations

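Further genes of the pathway had ratios of opposite sign with counting intervals that excluded 0, and these were chosen after their values were seen. The share of all genes compared with such ratios is not given here. Opposite signs are therefore not read as particular to these genes, Notch1 or Jag1. Tle2, a Groucho family co-repressor that HES proteins recruit, had a siDNMT1 ratio of 0.25 in uninduced cells and −0.42 in OB cells. Mib2, a ligase that acts on NOTCH ligands, had 0.31 (0.18 to 0.44) and −0.13 (−0.26 to −0.004), the second interval only just excluding 0. Crebbp, a histone acetyltransferase, had an OB ratio of 0.23 with control siRNA and −0.16 with DNMT1 siRNA. None of these differences was tested across libraries. Dtx3, a Deltex family ligase with 2830, 4112, 4087 and 5156 counts in control, siDNMT1, OB and siDNMT1_OB, had 0.62 (0.55 to 0.69) in siDNMT1 against control, and its control library was the lowest.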
